A study of Mus musculus with 12 samples.

Results

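Scavenger and efferocytosis receptors are the surface and lysosomal proteins with which a macrophage takes up modified lipoproteins, glycoproteins, haemoglobin and dying cells. The set described here holds 10 genes, named by symbol: *Folr2*, *Mrc1*, *Msr1*, *Cd163*, *Cd68*, *Stab1*, *Lrp1*, *Mertk*, *Axl* and the ligand gene *Gas6*, and all 10 were among the 13232 genes of the deposited table. They were picked in part because *Folr2* was higher in the high-fat-diet libraries. Differences between the diets are therefore given for these 10 genes as a description, with no test.

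The cells were bone marrow-derived macrophages, grown from whole marrow of wild-type C57B6/J mice with the growth factor M-CSF at 20 ng/ml, with a change to serum-free medium on day 4. The mice differed in feeding: ND libraries came from animals on the normal diet and HFD libraries from animals on the high-fat diet. All libraries used here came from cultures held at 1% oxygen for 1 h on day 7, so every comparison is between diets under hypoxia, with 3 libraries for each diet. The labels describe 12 samples in 4 groups, and the 6 libraries from normal oxygen were not analysed here, so nothing can be said about the response to hypoxia. The composition and length of the diets, and the age and sex of the mice, are not given in the sources used here. Nor is it stated that the 3 libraries of a diet came from separate mice or cultures, so the spread between them may be technical.

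Scavenger receptors bind ligands at the cell surface and carry them to lysosomes, where proteases and lipases break them down. Efferocytosis, the uptake of apoptotic cells, uses receptors that see phosphatidylserine on the dying cell, either directly or through a bridging protein. The receptor kinases MERTK and AXL belong to the second kind. They bind GAS6, a vitamin K-dependent protein whose other end holds phosphatidylserine. FOLR2, CD163 and MRC1 are widely used as surface markers of resident-type and alternatively activated macrophages.

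Values are normalised read estimates, meaning reads per gene divided by a size factor for the library, in which 1 read was worth 0.9081 to 1.1809 units. Estimated depth ran from 19046400 reads (ND replicate 3) to 24491500 (HFD replicate 3), and all 3 HFD libraries were deeper than all 3 ND libraries; the part of depth in the differences below was not tested. The least covered member in any library was *Cd163*, with about 418 reads in ND replicate 3, where counting error alone is 4.89% of the value. Reads carried no molecular identifiers and may repeat a molecule, so this error is that of counting alone. All 10 genes of a macrophage list (*Adgre1*, *Csf1r*, *Itgam*, *Lyz2*, *Fcgr1*, *Tyrobp*, *Aif1*, *Cd14*, *Mpeg1*, *Ctss*) were present. Their summed value was 499100 to 557026 in ND and 492322 to 565775 in HFD, so the markers of the labelled cell type were abundant in every library.

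Across all genes, limma on log2(value + 1) with Benjamini-Hochberg adjustment found 0 of 13232 genes past an adjusted p of 0.05 (0%), and 1401 (10.6%) at an unadjusted p under 0.05. The number depended on ND replicate 3, without which 233 genes passed, and 1133 passed when limma weighted the libraries.

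Promoter sequences were taken from RefSeq (GRCm38.p6) for the 9 members that have an entry, 10 windows in all, and each was read over the 250 bases before the start. The windows shown are those of *Folr2*, on which the set turns and which has 2 annotated starts, and those of the receptor *Axl* and its ligand *Gas6*, whose mean levels lay on opposite sides between the diets. Capitals mark matches, on either strand, to motifs searched in every window. These were ACGTG (the core of the hypoxia response element), CACGTG (the E-box core, which contains the former), TGCTGA (an arm of the recognition element of MAF factors), GGAAGT (an ETS core, as bound by PU.1) and the DR4 element of LXR and RXR.
*Folr2*, upstream start, chr7:101857191-101857440, minus strand: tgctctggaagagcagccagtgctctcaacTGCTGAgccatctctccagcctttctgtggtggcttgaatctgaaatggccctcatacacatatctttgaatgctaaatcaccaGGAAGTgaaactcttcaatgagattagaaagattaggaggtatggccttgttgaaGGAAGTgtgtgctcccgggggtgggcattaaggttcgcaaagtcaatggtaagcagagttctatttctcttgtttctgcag
*Folr2*, downstream start, chr7:101845332-101845581, minus strand: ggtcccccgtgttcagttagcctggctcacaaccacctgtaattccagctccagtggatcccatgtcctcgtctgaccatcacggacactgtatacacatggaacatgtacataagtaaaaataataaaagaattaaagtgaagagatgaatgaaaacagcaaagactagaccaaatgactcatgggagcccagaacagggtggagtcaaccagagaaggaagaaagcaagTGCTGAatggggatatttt
*Axl*, chr7:25788734-25788983, minus strand: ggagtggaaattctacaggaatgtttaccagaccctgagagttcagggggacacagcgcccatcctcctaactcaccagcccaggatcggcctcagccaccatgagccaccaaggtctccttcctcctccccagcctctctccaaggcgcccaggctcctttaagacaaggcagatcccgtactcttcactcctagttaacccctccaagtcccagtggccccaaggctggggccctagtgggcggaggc
*Gas6*, chr8:13494536-13494785, minus strand: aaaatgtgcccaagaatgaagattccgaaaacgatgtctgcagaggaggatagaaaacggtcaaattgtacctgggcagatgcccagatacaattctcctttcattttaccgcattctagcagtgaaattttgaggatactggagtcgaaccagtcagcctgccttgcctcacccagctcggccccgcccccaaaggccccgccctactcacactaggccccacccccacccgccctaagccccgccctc

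The upstream *Folr2* window held 2 matches to GGAAGT and 1 to TGCTGA, and the downstream window held 1 TGCTGA that ended 13 bases before the start. The windows of *Axl* and *Gas6* held no match to any of the 5 motifs. Of the members not shown, *Stab1* had a TGCTGA and *Mrc1* a GGAAGT on the opposite strand. Counted by window, 3 of 10 held TGCTGA and 2 of 10 GGAAGT. Of all 32851 windows 16.1% and 19.7% did, as did 12.8% and 24.4% of the 11494 windows of genes in the table. The hypoxia core, the E-box core and the DR4 element were in none of the 10 windows, in 16.6%, 6.02% and 0.0152% of all windows, and in 21.9%, 8.51% and 0% of those of genes in the table. A match describes letters only, a missing match says only that those letters are not in the window, and the libraries cannot tell which *Folr2* start was used.

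The 10 genes spanned a wide range of levels. Per kilobase of transcript, a scale on which genes can be compared, the order over the 6 libraries ran from *Cd68* to *Cd163*. *Cd68*, a heavily glycosylated protein of late endosomes and lysosomes, stood alone at 17481 ± 2404 per kb (SD, n = 6 libraries), above 99.6% of the 12964 genes with a known length. *Lrp1*, a giant endocytic receptor that takes up protease complexes, apolipoprotein E particles and dying cells, followed at 4990 ± 249.1. *Mrc1*, the mannose receptor, was at 3955 ± 313 per kb. *Gas6* (3725 ± 662.3), *Stab1* (3675 ± 137.6) and *Msr1* (3649 ± 654.4) came next and overlapped with *Mrc1* and with each other. *Folr2* was at 1304 ± 395 per kb and *Mertk* at 615.4 ± 101. *Axl* (162.6 ± 30.91) and *Cd163* (146.9 ± 43.27) were the lowest, near the middle of all genes, with 46.6% and 43.9% of genes below them.

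**Figure D1:**
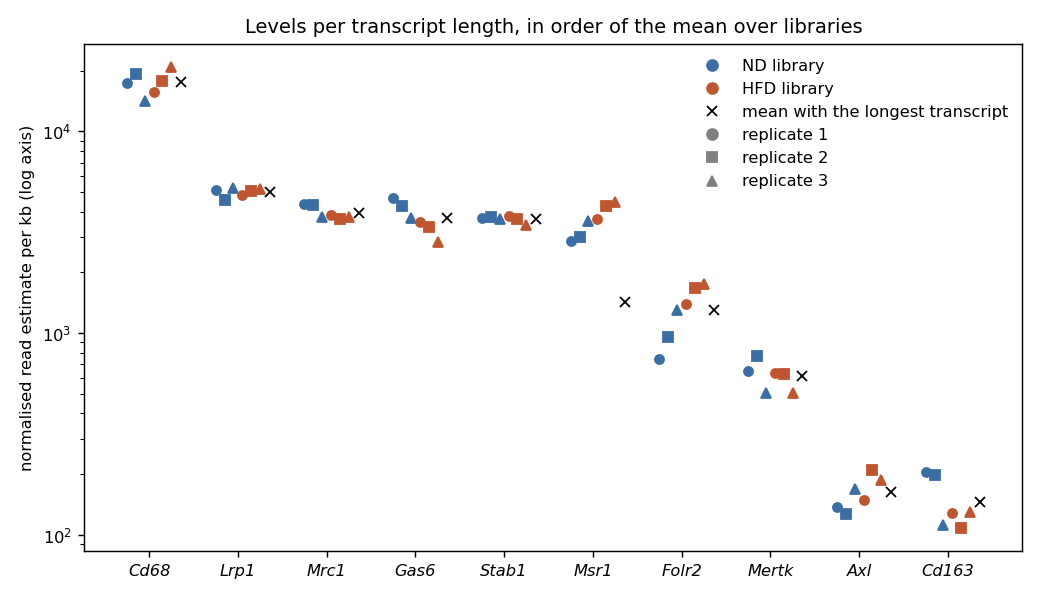
Normalised read estimate per kilobase of transcript (log axis) for the 10 genes in order of their mean, one point per library, ND blue and HFD orange, with the replicate number as the shape. A cross gives the mean over the 6 libraries when the longest transcript is used as the length, which lowers *Msr1* from 3649 to 1429 and moves the other genes little or not at all.

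Each of the 9 neighbouring pairs in this order was compared by an exact two-sided sign-flip permutation test of the log2 ratio over the 6 libraries. The ratio lay above 1 in 6 of 6 libraries for 5 pairs, *Cd68* over *Lrp1* (3.48-fold), *Lrp1* over *Mrc1* (1.26-fold), *Msr1* over *Folr2* (2.88-fold), *Folr2* over *Mertk* (2.05-fold) and *Mertk* over *Axl* (3.8-fold). Each of these had an exact p of 0.031, the smallest that 64 sign assignments can give, and an adjusted p of 0.056, so no pair could pass 0.05 after adjustment over 9 pairs unless more of them had reached that floor. The order was taken from the same libraries, so these p-values are descriptive. Pairs with *Folr2* also contain the values used to pick the set. *Folr2* and *Mertk* were closest in ND replicates 1 (743.1 and 650.8 per kb) and 2 (959.5 and 772.3). They were farthest apart in HFD replicate 3 (1760 and 507). The other 4 pairs did not differ beyond their spread (exact p from 0.16 to 1), which does not show that their levels are alike. *Msr1* depends on the transcript taken as its length, 1424 bases for the principal one and 3636 for the longest. With the longest transcript it lay at 1429 ± 256.3 per kb, its ratio to *Folr2* was 1.13 (exact p = 0.062), and *Stab1* exceeded it 2.61-fold in 6 of 6 libraries (exact p = 0.031, adjusted p 0.056). The order itself was the same with either length.

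The 3 genes of the set whose libraries did not overlap between the diets were *Folr2* and *Msr1*, both higher in HFD, and *Gas6*, lower in HFD. That is 3 of 10, where 14.5% of all genes had no overlap in either direction, 7.44% with HFD higher and 7.07% with HFD lower. Nothing is read from the comparison of these shares, since the set was chosen on this contrast. On average 5 members were higher in HFD and 5 lower, and with quantile normalization *Lrp1* changed sides. The median log2 difference of the members was -0.0032, against -0.0034 for all genes, and the median absolute difference was 0.23 against 0.092.

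**Figure D2:**
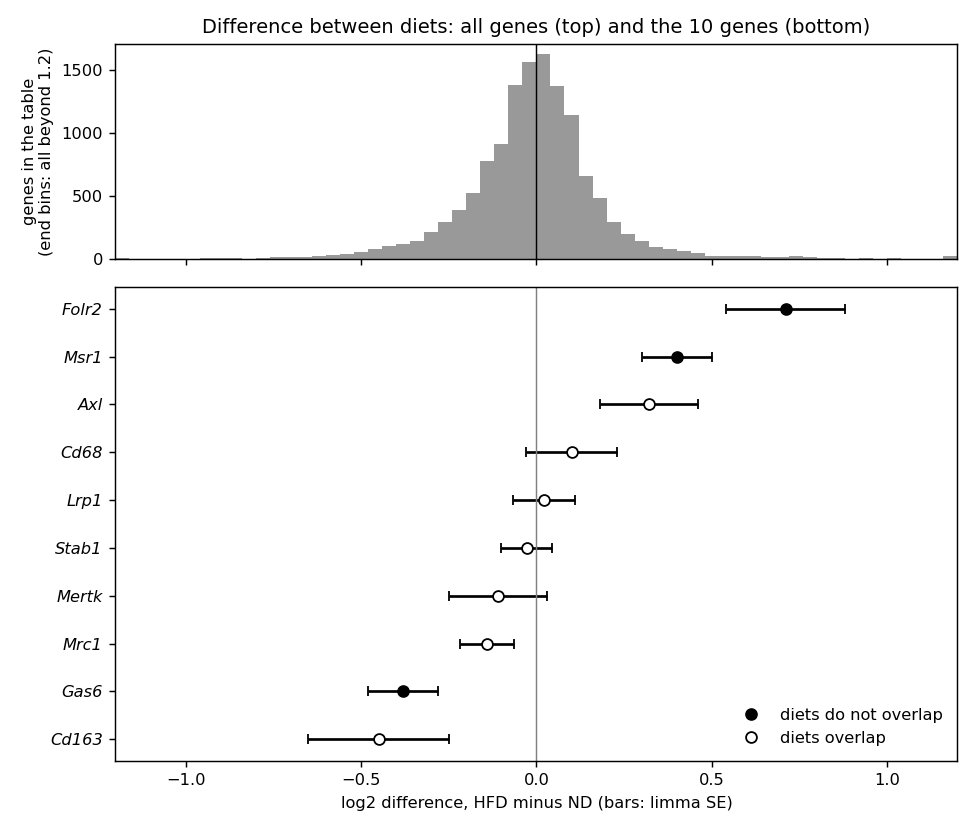
Top, the log2 difference HFD minus ND for all 13232 genes as a histogram, with genes beyond 1.2 in either direction counted in the end bins. Bottom, the same difference for the 10 genes with limma's SE as the bar, filled where the 3 HFD and 3 ND libraries do not overlap. *Folr2* (0.71) and *Cd163* (-0.45) lie at the ends, with *Lrp1* and *Stab1* at the centre.

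*Folr2* encodes the membrane-anchored folate receptor beta. It spans chr7:101839988-101857194 on the minus strand (GENCODE M21, GRCm38). Its value in replicates 1, 2 and 3 was 894.7, 1155 and 1569 with ND and 1674, 2007 and 2119 with HFD. Every HFD library lay above every ND library, and ND replicate 3 came close to HFD replicate 1. The mean was 1206 ± 339.8 for ND and 1933 ± 231.1 for HFD (SD, n = 3). This is 1.64-fold, with a log2 difference of 0.71 (SE 0.17). Leaving out a library gave 0.51 (without ND replicate 1) to 0.92 (without ND replicate 3). In bulk RNA, more cells expressing a gene and more RNA per cell cannot be told apart, here or for any other member.

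The reading of *Folr2* has a limit of annotation. In GENCODE M21, 975 exonic bases of *Folr2* are also exons of *Gm10602* on the opposite strand, and the labels name a stranded kit but not whether counting used the strand. *Gm10602* has its own row in the table, with 222.4, 238.5 and 271 in ND and 281.3, 269.4 and 300.5 in HFD. This is 17.3% to 24.9% of *Folr2* in ND and 13.4% to 16.8% in HFD. The log2 difference of *Gm10602* was 0.22 (SE 0.10) and its diets overlapped. The part that shared reads play in *Folr2* was not tested. *Stab1* shares 112 exonic bases with *Nt5dc2* and *Gas6* 34 with *Tmem255b*, also on opposite strands, and no member shared a stretch of 75 bases on its own strand with another gene.

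*Msr1* encodes the class A macrophage scavenger receptor, which takes up oxidised and acetylated lipoproteins, and lies at chr8:39581685-39642673 on the minus strand. It stood at 4083, 4241 and 5142 in ND and at 5247, 6094 and 6370 in HFD. The diets did not overlap, but ND replicate 3 and HFD replicate 1 were again adjacent. The means were 4489 ± 571.2 and 5904 ± 585.3 (SD, n = 3), a log2 difference of 0.40 (SE 0.10) or 1.32-fold.

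*Cd163*, the receptor for haptoglobin-haemoglobin complexes, was at 904, 871.2 and 493.6 in ND and at 561.9, 476.7 and 573 in HFD. ND replicates 1 and 2 were higher than all other libraries, while ND replicate 3 lay inside the HFD range. The log2 difference was -0.45 (SE 0.20), and it moved with the ND library left out, to -0.73 without ND replicate 3 and to -0.29 without ND replicate 1. *Mrc1* followed the same outline at a smaller scale, with 23552, 23213 and 20230 in ND and 20714, 19716 and 20104 in HFD. Its log2 difference was -0.14 (SE 0.077), with ND replicate 3 again among the HFD values.

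The remaining scavenger receptors differed little. *Stab1*, a multidomain receptor for acetylated lipoproteins and matrix debris, was at 29590, 30042 and 29361 in ND and 30509, 29574 and 27315 in HFD. Its highest library was 1.12 times its lowest, and the log2 difference was -0.028 (SE 0.072), or 0.018 without HFD replicate 3 and -0.062 without HFD replicate 1. *Lrp1* ranged from 67857 to 77568, both of them ND libraries, with a log2 difference of 0.021 (SE 0.089), or -0.06 with quantile normalization and -0.038 without ND replicate 2. *Cd68* ranged from 17422 (ND replicate 3) to 25635 (HFD replicate 3), with a log2 difference of 0.10 (SE 0.13) that was -0.02 when ND replicate 3 was left out and -0.0063 when HFD replicate 3 was. All 3 had overlapping diets and no common direction.

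**Figure D3:**
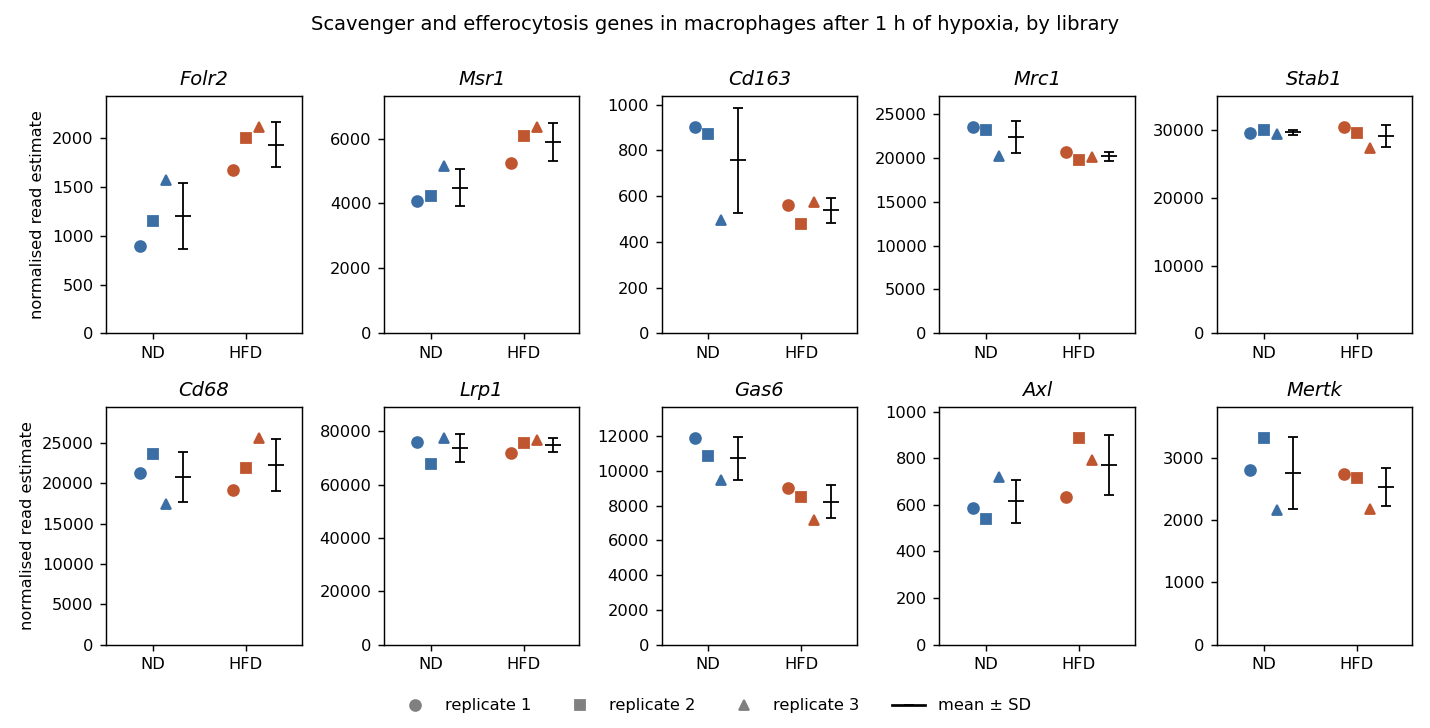
Normalised read estimate of each of the 10 genes in each library, ND (blue) and HFD (orange), with the replicate number as the shape and the mean ± SD (n = 3) beside the points; every axis starts at 0. In *Folr2* and *Msr1* all HFD points lie above all ND points and in *Gas6* all lie below, while ND replicate 3 (blue triangle) lies toward or within the HFD range in *Cd163* and *Mrc1*.

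Among the genes for uptake of apoptotic cells, the ligand and one receptor stood in opposite directions. *Gas6*, at chr8:13465374-13494490 on the minus strand, was at 11921, 10848 and 9460 in ND and at 9018, 8513 and 7186 in HFD. All HFD libraries lay below all ND libraries, with means of 10743 ± 1234 and 8239 ± 946.3 (SD, n = 3) and a log2 difference of -0.38 (SE 0.10), or 0.767 of the ND level. *Axl*, which binds GAS6 but not protein S with high affinity, was at 585.7, 541.7 and 719.2 in ND and at 633.3, 888.8 and 792.7 in HFD. HFD replicate 1 lay among the ND values. The log2 difference was 0.32 (SE 0.14); leaving out HFD replicate 2 gave 0.21 and leaving out HFD replicate 1 gave 0.46. *Mertk*, the main efferocytosis kinase of resident macrophages, was at 2800, 3323 and 2160 in ND and at 2737, 2685 and 2181 in HFD. The lowest and highest libraries of *Mertk* were both ND, and its log2 difference of -0.11 (SE 0.14) turned to 0.036 without ND replicate 2 and was -0.27 without ND replicate 3, when its diets no longer overlapped.

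Per length, *Mertk* exceeded *Axl* in every library, by 2.98-fold to 6.08-fold in ND and 2.73-fold to 4.28-fold in HFD, with overlap between the diets. *Gas6* exceeded the sum of both receptors by 4.73-fold to 5.94-fold in ND and by 4.01-fold to 4.51-fold in HFD, without overlap. *Pros1*, the gene of protein S, the other ligand of MERTK, had a log2 difference of -0.0072 (SE 0.081). The ratio of *Gas6* to *Pros1* averaged 12.4 ± 0.585 for ND and 9.57 ± 0.707 for HFD (SD, n = 3), again without overlap. These ratios contain the chosen contrast and are descriptions.

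The members also differed in how far replicates of a diet stood apart, a measure that does not use the difference between the diets. The SD of log2 values within a diet, pooled over both diets, was 0.36 for *Cd163*, 0.313 for *Folr2* and 0.256 for *Mertk*. It was 0.0594 for *Stab1*, 0.0814 for *Lrp1* and 0.0893 for *Mrc1*. The median over the 10 genes was 0.192, against 0.109 for genes with a mean of at least 100, and 7 of 10 members lay above that value. In 10 of 10 members ND replicate 3 was nearer to the HFD mean than to the mean of ND replicates 1 and 2, as it was in 60.2% of all genes. HFD replicate 1 was nearer to the ND mean than to the mean of HFD replicates 2 and 3 in 6 of 10 members and in 56.4% of all genes. Unlike the SD, these counts use the diet means, and so the contrast on which the set was chosen. Nearer does not mean within the HFD range. ND replicate 3 was the lowest of all libraries for *Cd68* (17422) and *Mertk* (2160) and the highest for *Lrp1* (77568).

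To place *Folr2* among all genes, profiles of log2(value + 1) over the 6 libraries, each less its own mean, were compared by root-mean-square distance over 10793 genes with a mean of at least 100. The 5 nearest were *Klhl3* (distance 0.038), a substrate adaptor of a ubiquitin ligase, *Cd36* (0.04), a receptor for fatty acids and oxidised lipoproteins, *Gm21399* (0.05), the eotaxin receptor gene *Ccr3* (0.065) and the peroxiredoxin *Prdx1* (0.069). *Cd36* ran from 39821, 49720 and 64195 in ND to 71932, 89071 and 92527 in HFD, with libraries in the same order as *Folr2*. *Klhl3* ran from 166.6, 212.2 and 294 to 309.3, 372.5 and 421.3, and *Prdx1* was the one of the 5 whose diets overlapped. *Gm21399* is annotated as a processed pseudogene and shares 68 of its 523 stretches of 75 bases with *Prdx1*, so its reads are uncertain. Among the members *Msr1* was nearest to *Folr2* (0.21, place 97 of 10793) and *Cd163* farthest (0.78, place 10719). Likeness over 6 libraries includes the difference between diets that chose *Folr2*. Without ND replicate 1 only 2 of the 5 genes stayed among the nearest 5, and with quantile normalization 3 did.

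**Figure D4:**
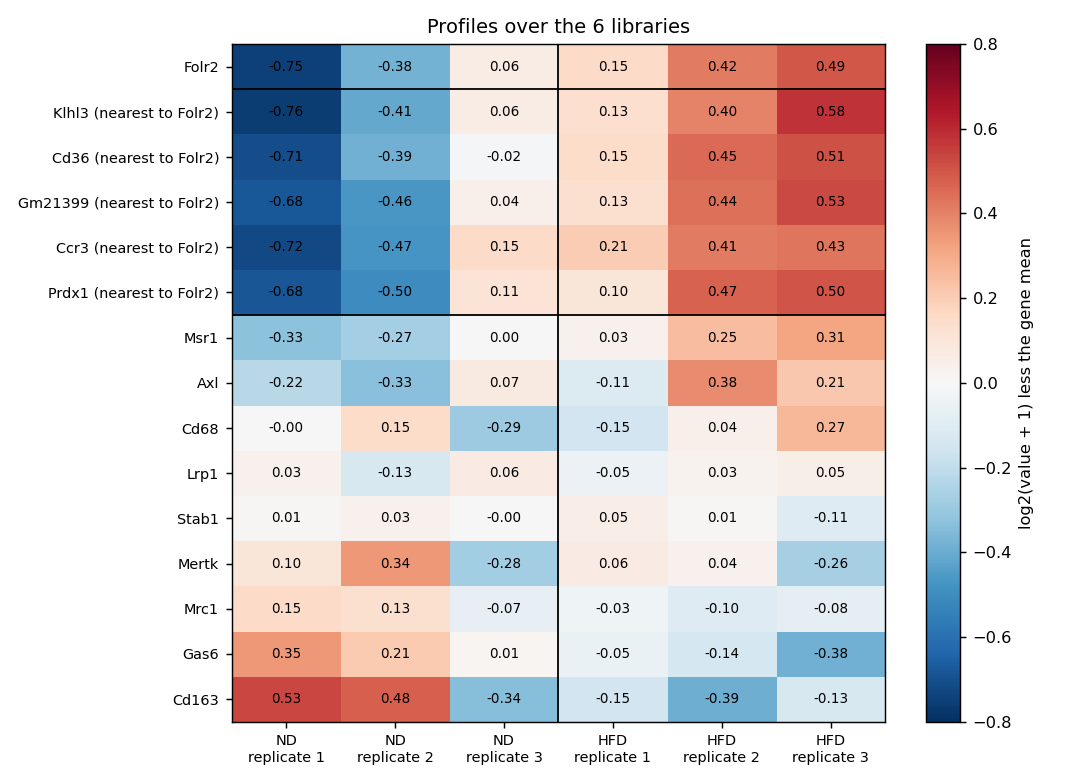
Value of log2(value + 1) less the gene's mean over the 6 libraries, printed and coloured from blue (low) to red (high), for *Folr2*, its 5 nearest genes and the other 9 genes; columns are libraries. As in *Folr2*, ND replicates 1 and 2 are the lowest libraries of the 5 nearest genes and HFD replicates 2 and 3 the highest; *Msr1* has the same outline with smaller values, and *Gas6* the opposite.

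Genes that work with these receptors were read from 11 lists, of which 128 of 155 genes were in the table. None passed the limma adjusted threshold of 0.05 in either direction (smallest adjusted p 0.145), and 34 of the 128 had an unadjusted p under 0.05, beside 10.6% of all genes. The diets did not overlap for 33 of them (25.8%), 21 higher and 12 lower in HFD, beside 14.5% of all genes. Their median log2 difference was 0.038. Without ND replicate 3, 57 did not overlap (44.5%, beside 35.9% of all genes in that comparison of 3 against 2 libraries) and 10 passed (233 of all genes did, 1.76%), 8 with HFD higher (*Cd36*, *Ctsl*, *Mfge8*, *Pf4*, *Mitf*, *Klf9*, *Adam8* and *Anxa1*) and 2 with HFD lower (*Cd300lf* and *Selenop*).

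Of 18 other scavenger receptors 9 were in the table, with a median log2 difference of 0.15 and 4 without overlap. *Cd36* was higher in HFD (51245 ± 12259 against 84510 ± 11029, SD, n = 3, log2 difference 0.74, limma adjusted p 0.217). It passed without ND replicate 3 (0.92, limma adjusted p 0.0163). *Cd5l*, a secreted scavenger-receptor-domain protein of macrophages, was lower (6684 ± 533.4 against 5158 ± 836, log2 difference -0.38, limma adjusted p 0.293). The class B receptor *Scarb1* had a log2 difference of -0.22 and the beta-glucan receptor *Clec7a* of 0.19, both without overlap.

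Of the 20 other receptors and bridging molecules for apoptotic cells 16 were in the table, with 0 past the threshold, 4 without overlap and a median log2 difference of 0.066. *Mfge8*, which bridges phosphatidylserine to integrins, was at 2369, 2235 and 2950 in ND and 3132, 3645 and 3243 in HFD (log2 difference 0.41, limma adjusted p 0.267). The bridging genes *Mfge8* and *Gas6* thus stood on opposite sides, while *Pros1* (-0.0072) and *Thbs1* (0.20), also bridging genes, overlapped. *Cd300lf*, an inhibitory phosphatidylserine receptor, was lower in HFD at 160.6, 169.2 and 116.6 against 85.76, 55.31 and 62.4 (log2 difference -1.13, limma adjusted p 0.153). Both passed without ND replicate 3, *Mfge8* at 0.53 (limma adjusted p 0.0163) and *Cd300lf* at -1.29 (0.0202). The complement genes *C1qa* (0.16) and *C1qb* (0.062) and the lipid receptor *Trem2* (0.12) overlapped.

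In the engulfment machinery, the GTPases and adaptors that shape the phagocytic cup, 13 of 14 genes were in the table, 11 of them higher in HFD by small amounts (median log2 difference 0.076, range -0.02 to 0.23). The adaptor *Crk* (0.17, limma adjusted p 0.353) was without overlap, as were *Rac1* (0.051) and *Cdc42* (0.13). For phagosome maturation and digestion all 17 genes were present, with a median of -0.028 and 6 without overlap. The lysosomal protease gene *Ctsl* was at 16116, 17848 and 21381 in ND and 25339, 30255 and 29517 in HFD (log2 difference 0.63, limma adjusted p 0.145). It passed without ND replicate 3 (0.74, limma adjusted p 0.0127). The late endosomal GTPase *Rab7* (0.24) and the lysosomal acid lipase *Lipa* (0.25) were higher and the cholesterol carrier *Npc2* (-0.11, limma adjusted p 0.599) lower, all without overlap. The list of checkpoint genes that restrain phagocytosis, such as *Sirpa* (0.0054) and *Cd47* (0.0062), had 9 of 10 members in the table and none without overlap.

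**Figure D5:**
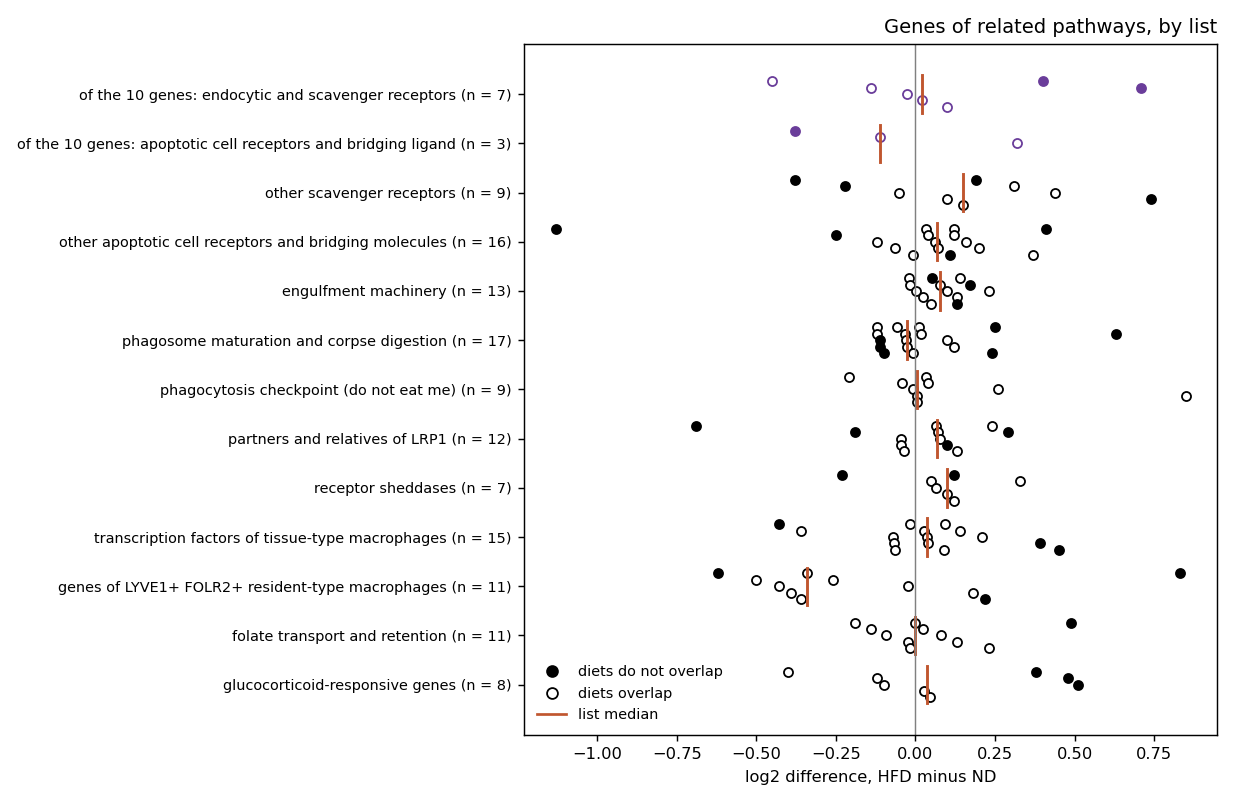
Log2 difference HFD minus ND of each gene in the lists read beside the 10 genes (purple), filled where the diets do not overlap, with the list's median as a bar. Most genes lie within 0.25 of 0; *Cd300lf* (-1.13) is farthest to the left, and the median of the resident-type list (-0.34) lies farther from 0 than the other medians.

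Partners and relatives of *Lrp1* had 12 of 14 genes in the table, with 4 without overlap and a median log2 difference of 0.067. *Lrp11* was higher in HFD (log2 difference 0.29, limma adjusted p 0.471, and 0.19 without ND replicate 3), as was the LRP1 chaperone *Lrpap1* (0.10). Of 8 genes for shedding of receptors 7 were in the table. The protease genes *Adam17* (0.063) and *Adam10* (0.10), which release the ectodomains of MERTK and other receptors, overlapped, while *Adam9* (0.12, limma adjusted p 0.542) and *Rhbdf1* (-0.23, limma adjusted p 0.633) did not.

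Among 16 transcription factors of tissue-type macrophages, 15 were in the table, with a median of 0.037. *Nr1h3*, which encodes LXR alpha, was at 246.5, 299.2 and 311.8 in ND and 391.6, 407.2 and 371.4 in HFD (log2 difference 0.45, limma adjusted p 0.239). *Mitf* (0.39) was also without overlap. *Irf4* was lower (-0.43, limma adjusted p 0.353). *Maf* (-0.36) overlapped.

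Genes reported with *Folr2* in LYVE1+ FOLR2+ resident-type macrophages did not stand on one side with it. The table held 11 of 18 such genes, of which 8 had lower and 3 higher means with HFD (median log2 difference -0.34), with 0 past the threshold and 3 without overlap. The platelet factor gene *Pf4* was higher at 565.8, 967.1 and 1299 in ND and 1506, 1886 and 1421 in HFD (log2 difference 0.83, limma adjusted p 0.301). It passed without ND replicate 3 (1.10, limma adjusted p 0.034), and was 0.51 without ND replicate 1. *Igf1* (0.22) was also higher without overlap, and the carbonyl reductase *Cbr2* was lower (-0.62, limma adjusted p 0.284). *Clec10a* (-0.50), *F13a1* (-0.43) and *Selenop* (-0.39) overlapped, and *Selenop* was among the 10 that passed without ND replicate 3.

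For folate handling, 11 of 13 genes were in the table. *Slc46a1*, the proton-coupled folate transporter, was higher in HFD at 79.22 ± 13.65 against 111.3 ± 19.39 (SD, n = 3, log2 difference 0.49, limma adjusted p 0.404), the diets being separated by less than 1 read. The other 10, which include the reduced folate carrier *Slc19a1* (-0.016) and the enzyme *Mthfd2* (0.23), overlapped. Of 8 glucocorticoid-responsive genes, all in the table, *Dusp1* (0.51, limma adjusted p 0.295), *Klf9* (0.48) and *Sgk1* (0.38) were higher without overlap (*Dusp1* 0.32 without ND replicate 1), while *Fkbp5* (0.026) and *Tsc22d3* (-0.40) overlapped.

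Sums over markers of other cell types stood apart between the diets for some types. Of a dendritic cell list 4 of 10 genes were in the table, and their sum was 5078 to 6813 in ND and 7996 to 10183 in HFD, mostly *H2-Aa* and *Itgax*. Only *H2-Aa* (log2 difference 0.70) was without overlap, while *Itgax* (0.90), *Ciita* (0.14) and *Batf3* (-0.047) overlapped. *Flt3*, *Zbtb46*, *Cd209a* and *Ccr7* were not analysed here. Of an endothelial list only *Kdr* and *Vwf* were in the table, with a sum of 2509 to 3779 in ND and 2259 to 2296 in HFD. The sum was mostly *Vwf* (-0.37), which was without overlap, while *Kdr* (-0.51) overlapped. The 4 stromal collagen genes of a list of 10 summed to 191.7 to 599.1 in ND and 56.3 to 388.9 in HFD, with overlap, and *Gas6* and *Axl* are also made by stroma. Sums for neutrophils (6 of 10 genes, 1712 to 2455 and 2109 to 3430), monocytes (5 of 8, 1320 to 1417 and 1338 to 1710) and osteoclasts (7 of 9, 3523 to 4248 and 3996 to 4568) overlapped, but single genes in them did not. All 6 neutrophil genes had higher means in HFD, and *Mmp8*, a neutrophil collagenase, was at 443, 462.5 and 452.3 in ND and 706.8, 1032 and 833.6 in HFD (log2 difference 0.90, limma adjusted p 0.113). The osteoclast protease gene *Mmp9* was at 63.86, 136.9 and 174.8 in ND and 234, 320.4 and 257.9 in HFD (log2 difference 1.21, limma adjusted p 0.27). *Itgb3* of the same list (-0.25) and *Vcan* of the monocyte list (-0.45) were lower in HFD without overlap. B cells had *Ighm* alone (1889 to 3061 and 1876 to 2075), T cells *Cd4* alone (201.9 to 355.9 and 98.07 to 230), and no erythroid gene was analysed here. Their part in the values of *Folr2*, *Msr1* and *Gas6* was not tested.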

How the data were processed

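RNA of bone marrow-derived macrophages was sequenced from ribosome-depleted, stranded libraries as single reads of 75 bases, per the labels' protocols. The submitters' processing notes name STAR and Partek as tools and mm10 as the build; counter, annotation and filters are not given in the sources used here. The deposited values are a signal, gene-level read estimates that the authors, as far as the values show, divided by a size factor for each library: 57.0% to 58.4% of values between 5 and 1000 were whole multiples (within 0.02 of a read) of one step per library, the value of 1 read. The rest were fractions, so whole reads were not recovered and no count test was run. NC in a column name was read as normal diet, and 0 columns had no match. The labels give no batch.

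The diets (3 libraries each) were set against each other in limma 3.58.1 (R 4.3.3; two-sided, mean-variance trend) on log2(value + 1), fitted on all 13232 genes with Benjamini-Hochberg adjustment over all of them. A log2 difference on this scale understates the change of low genes; SE is limma's. P-values measure only the spread between these libraries. Lengths, coordinates and overlaps came from GENCODE M21 (GRCm38, the assembly of mm10), which matched 12964 symbols (98%). The members and lists were chosen with earlier results of these data known. Named were all 10 members, the gene of each list with the largest difference without overlap in either direction, and the 5 genes nearest to *Folr2*; other names were chosen after their values were seen, and some genes of the lists are counted but not reported here by name. Alternatives were the pseudocount, a minimum value, scaling, library weights, the trend, the replicate number as a term, transcript length and leaving out each library; those for the genes nearest to *Folr2* and for neighbouring pairs by longest transcript were chosen after seeing the data. The fit was tested on simulated data.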

Additional observations from a re-analysis of the deposited data

How the results depend on the processing

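Under 5 alternatives (pseudocount 0.1; genes with at least 10 in all libraries; scaling to the column total; quantile normalization; limma without the trend) the count of genes past the adjusted threshold stayed at 0 and that of pathway genes at 0. Library weights gave 1133 genes (8.56%; 3646 at an unadjusted p under 0.05) and 28 pathway genes. Leaving out 1 library gave 0 to 233 genes, 700 to 2309 at an unadjusted p, 0 to 10 pathway genes and 35 to 57 pathway genes without overlap; the highest of each came without ND replicate 3, and the cause was not tested. The adjusted count was 1 without ND replicate 2 and 2 without HFD replicate 1, the unadjusted count was 700 without ND replicate 1 and 726 without HFD replicate 2, and 56 pathway genes did not overlap without HFD replicate 1. Members without overlap numbered 3 to 7. The 7, without ND replicate 3, added *Mrc1*, *Cd163*, *Mertk* and *Axl* to *Folr2*, *Msr1* and *Gas6*, and without HFD replicate 1 there were 5; of all genes 35.9% and 30.5% did not overlap in those comparisons, and 14.5% with all libraries. Leaving out a library can only add to the counts without overlap. The median difference of the members moved to -0.088 with quantile normalization, where *Stab1* (-0.15) also lay without overlap. From 8 to 10 of the 10 genes kept their place in the order of levels when a library was left out.

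With the replicate number as a block, 31 genes passed, 2 of them pathway genes, *Cd36* (limma adjusted p 0.0426) and *Ctsl* (0.0381). Deviations of same-numbered libraries correlated across 10794 genes at 0.0891, -0.112 and 0.0273, and no pairing was taken from the numbers. Depth limits low genes most, among those named *Slc46a1*, *Cbr2* and *Rhbdf1*.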
